A study of Saccharomyces cerevisiae with 16 samples.

Results

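Budding yeast genes that have no standard name are known only by a systematic name, which codes their place in the genome: the letter after Y gives the chromosome, L or R the arm, the digits the order from the centromere, and W or C the strand. Of the 3127 genes read on these slides, 226 carried such a name. The 60 of them described here were chosen by the size of their mean log2 ratio of hydroxyurea-treated over untreated RNA over all 8 slides, whichever its sign. That mean, and the ratio at any single time, is therefore given below as a description, with no test. All 60 were measured on every slide, 56 by 1 spot and 4 by 2 spots. A current reference annotation (RefSeq, assembly R64) held 59 of them under their gene number, all still without a standard name, and did not hold YGR272C.

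All cells were wild-type Saccharomyces cerevisiae (strain CDY59) in the rich medium YPD. The treated ones were kept with 200 mM hydroxyurea for 1, 2, 4 or 6 h. The untreated ones came from a culture at an optical density of 0.5. A pair of two-colour slides was hybridised for each time, one with the treated RNA in channel 1 (a channel-1 slide here) and one with it in channel 2 (a channel-2 slide). Readings of each slide in 2 settings, titled faible and fort (weak and strong), made 16 readings of 8 slides. Separate cultures for the 2 slides of a time are not mentioned in the labels, so the spread between slides, which p-values measure, may be technical. No untreated culture kept for the same hours is named either. The ratios were turned so that the mean of RNR4, a ribonucleotide reductase gene that hydroxyurea is known to induce, stood above 0. RNR4 was above 0 on 8 of 8 slides, but only at 0.14 on the 1 h channel-1 slide, against 1.80 to 5.30 on the others. RNR2, another such gene, was above 0 on 7 of 8. The direction of every value below is therefore likely and not established.

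Hydroxyurea inhibits ribonucleotide reductase, starves replication forks of deoxynucleotides and activates the S-phase checkpoint. It also raises reactive oxygen species in yeast, and cells answer with transcription factors for oxidative stress and general stress, while genes for ribosome production are turned down in many stresses. Genes without a standard name are mostly those to which no process has been assigned, among them enzymes known from their sequence family, paralogs of better known genes, and short or repeated reading frames.

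Values are log2 ratios relative to the median gene of each reading, averaged over both readings. The base of the logarithm is not stated by the labels and was taken as 2. The slides of 4 h and 6 h are called late and those of 1 h and 2 h early. Each pair of values at a time has the channel-1 slide first, and means carry the SD over the 8 slides, which span 4 times. One slide, the 1 h channel-1 slide, stood apart for several of the 60 genes. On it RNR4 was at 0.14 and RNR2 at -0.98. There 3 of the 60 genes, YJL028W, YKL069W and YJR028W, were at -3.14, -2.44 and -1.60. The means of these 3 genes are given below with and without this slide, while the tests of time include it unless stated.

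Among the 60 genes, 44 had a mean above 0 and 16 a mean below 0. A mean above 0 was thus found in 73.3% of them, against 77.1% of the 166 other systematic-name genes (128 genes) and 51.7% of all 3127 genes. Means ran to 2.35 for YMR315W at the top and to -0.74 for YPL216W at the bottom. The response of most of the 60 was modest: 17 had an absolute mean of 0.5 or more, and 20 were under 0.3. The absolute mean of the last of them was 0.23, a size that 32.7% of all genes reached, and YMR315W, YNL134C and YDR061W were the only 3 that ranked among the 60 largest of all genes. An absolute mean of 1 or more was found in 4 of the 60 (6.67%), 0 of the 166 other systematic-name genes and 2.24% of all genes. The choice by mean puts such genes among the 60, so no excess is read from that count. YDL241W at 0.2306, YGR237C at 0.2319 and YGR111W at 0.2331 were just inside the limit, and YJL163C at 0.2288, YLR126C at 0.2275 and YGL140C at -0.2275 just outside. The median over the 44 genes was 0.22 (1 h), 0.37 (2 h), 0.38 (4 h) and 0.52 (6 h), and that over the 16 genes was -0.48, -0.36, -0.37 and -0.42 in the same order of times.

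**Figure D1:**
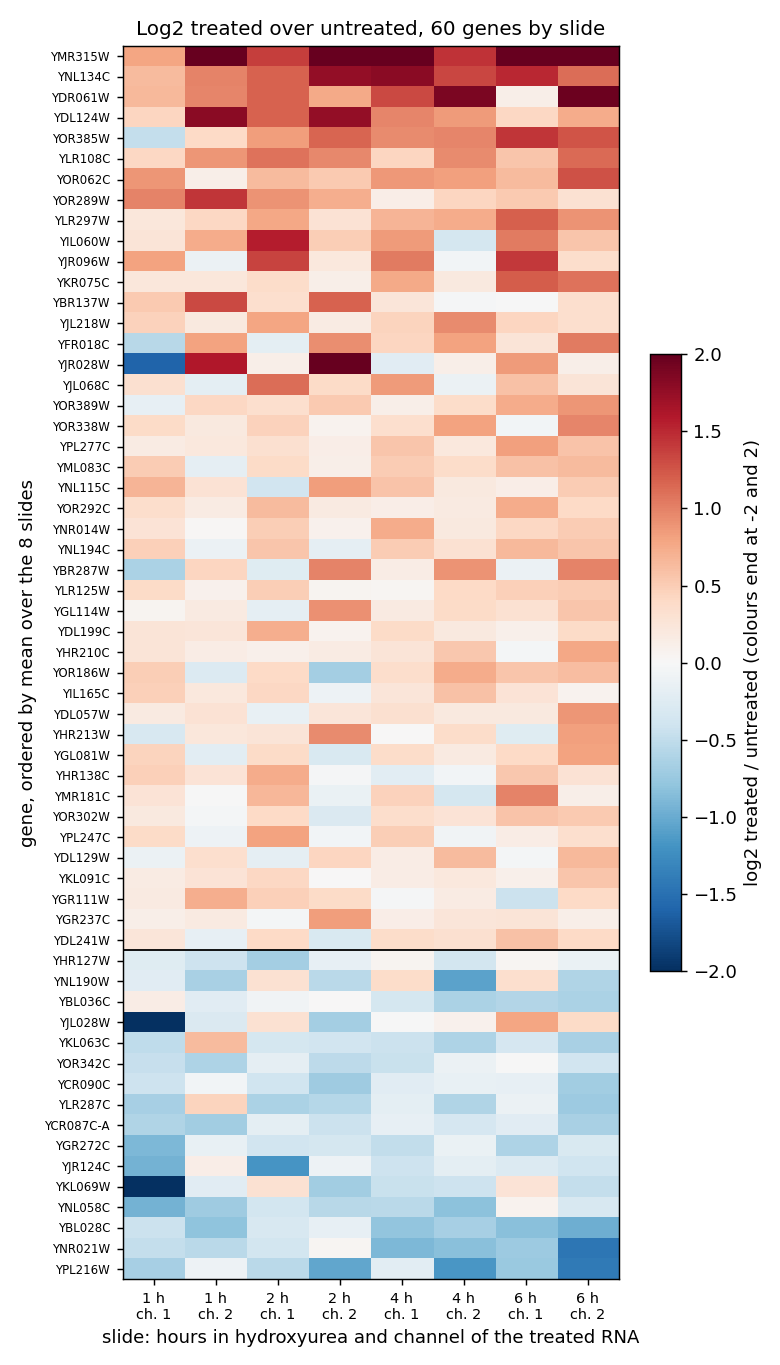
Log2 ratio of treated over untreated RNA (colour, red above 0 and blue below 0) for the 60 genes (rows, ordered by their mean) on the 8 slides (columns, by hours in hydroxyurea and by the channel that held the treated RNA). Colours end at -2 and 2. The line separates the 44 genes with a mean above 0 from the 16 below. YJL028W and YKL069W owe their darkest cells, -3.14 and -2.44, to the 1 h channel-1 slide.

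A total of 21 of the 60 genes had the same sign on 8 of 8 slides, against 8.38% of all genes. They comprised 15 genes above 0 and 6 below, against 3.81% and 4.57% of all genes. The choice by mean favours such genes, so nothing is read from that count. Another 17 had the sign of their mean on 7 slides, 15 on 6 slides, 6 on 5 slides and 1, YJL028W, on 4 slides. Both slides of a time had the same sign for 39 of the 60 genes at 1 h and 38 at 2 h, against 43.8% and 41.2% of all genes, and for 49 at 4 h and 49 at 6 h, against 64.1% and 67.0% of all genes. The choice by mean bears on these counts too.

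Enzymes that use NADH or NADPH had the 2 highest means, followed by YDR061W, which is of another kind and is described further below. YMR315W, an NADP(H)-dependent oxidoreductase whose gene is a target of the NADPH-regulating factor Stb5, had 0.79 and 2.82 (1 h), 1.39 and 4.26 (2 h), 2.26 and 1.45 (4 h), and 2.46 and 3.42 (6 h), a mean of 2.35 ± 1.15. It was above 0 on 8 of 8 slides and ranked 3 among all genes, and its mean is a 5.11-fold ratio if the base is 2. The slides differed widely in size, and at 1 h, 2 h and 6 h the channel-2 slide was the higher one.

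YNL134C, an NADH-dependent aldehyde reductase, stood at 0.64 and 1.00 (1 h), 1.18 and 1.76 (2 h), 1.80 and 1.34 (4 h), and 1.50 and 1.11 (6 h), with a mean of 1.29 ± 0.39. It was above 0 on 8 of 8 slides, and both 1 h slides were its lowest. YDL124W, an aldo-keto reductase that uses NADPH, had 0.43 and 1.81 (1 h), 1.19 and 1.76 (2 h), 0.98 and 0.86 (4 h), and 0.41 and 0.74 (6 h) (mean 1.02 ± 0.54). Both of its highest slides were the channel-2 slides of 1 h and 2 h, and its 6 h slides were among its lowest.

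YJR096W, another aldo-keto reductase, active on xylose and arabinose, had 0.81 and -0.12 (1 h), 1.35 and 0.22 (2 h), 1.04 and -0.06 (4 h), and 1.42 and 0.35 (6 h). All 4 channel-1 slides lay above all 4 channel-2 slides, so its mean of 0.63 ± 0.61 joins a clear value in one orientation with a value near 0 in the other. YJL068C, the esterase that hydrolyses S-formylglutathione in formaldehyde detoxification, ran from -0.19 to 1.12 with a median of 0.35 and also stood higher on the channel-1 slides. YKL069W, a methionine-(R)-sulfoxide reductase that repairs oxidised methionine, was below 0 in the mean (-0.51 ± 0.86). Its slides were -2.44 and -0.23 (1 h), 0.31 and -0.70 (2 h), -0.45 and -0.42 (4 h), and 0.28 and -0.48 (6 h), and without the 1 h slide at -2.44 its mean was -0.24.

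Other genes among the 12 highest were of other kinds or of no known kind. YDR061W, which resembles the ATPase part of ABC transporters and lacks their membrane spans, had 0.65 and 0.98 (1 h), 1.18 and 0.76 (2 h), 1.33 and 1.88 (4 h), and 0.12 and 1.96 (6 h) (mean 1.10 ± 0.62). It was above 0 on 8 of 8 slides, and its 6 h slides were its lowest and its highest. YOR385W had -0.47 and 0.40 (1 h), 0.83 and 1.16 (2 h), 0.95 and 0.97 (4 h), and 1.43 and 1.27 (6 h) (mean 0.82 ± 0.61), with its only value below 0 at 1 h and its highest at 6 h. YLR108C had 0.42 and 0.89 (1 h), 1.09 and 0.97 (2 h), 0.44 and 0.95 (4 h), and 0.56 and 1.14 (6 h) (mean 0.80 ± 0.29), all above 0.

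YOR289W, a protein of the AMMECR1 family, had 1.00 and 1.43 (1 h), 0.91 and 0.72 (2 h), 0.13 and 0.43 (4 h), and 0.52 and 0.31 (6 h) (mean 0.68 ± 0.42). Its 4 late slides all lay below its 4 early slides. YIL060W had 0.25 and 0.74 (1 h), 1.57 and 0.49 (2 h), 0.85 and -0.36 (4 h), and 1.04 and 0.55 (6 h) (mean 0.64 ± 0.57), above 0 on 7 of 8 slides.

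**Figure D2:**
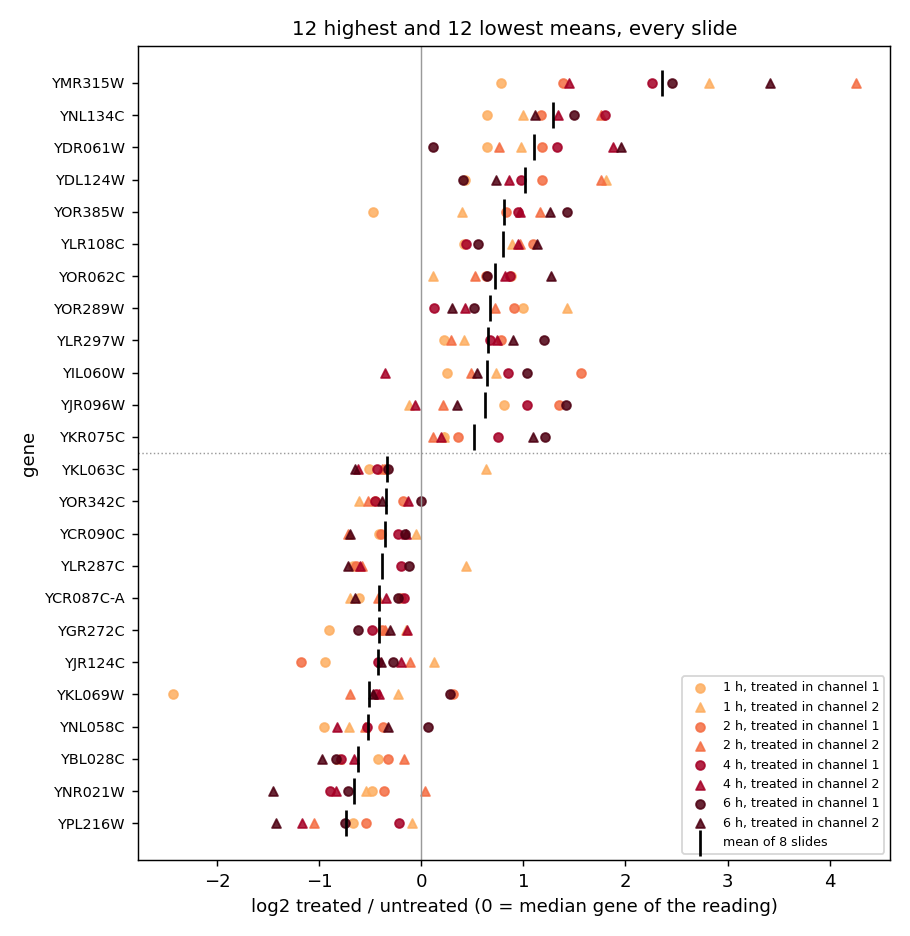
Log2 ratio of treated over untreated RNA on each of the 8 slides (points, coloured by time, circles for treated RNA in channel 1 and triangles for channel 2) and their mean (bar) for the 12 genes with the highest and the 12 with the lowest mean. YMR315W spans 0.79 to 4.26, while 6 of the 12 lowest genes stayed below 0 on every slide.

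The group above 0 held 3 pairs of duplicated genes. YOR062C and YKR075C, paralogs of each other, had means of 0.72 ± 0.33 and 0.52 ± 0.44, and both were above 0 on 8 of 8 slides. The slides of YOR062C were 0.88 and 0.12 (1 h), 0.64 and 0.53 (2 h), 0.87 and 0.82 (4 h), and 0.64 and 1.28 (6 h). YKR075C, which is known to respond to glucose, had 0.22 and 0.22 (1 h), 0.36 and 0.12 (2 h), 0.76 and 0.20 (4 h), and 1.21 and 1.09 (6 h), with 3 of its 4 late slides above all early ones.

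YLR297W and YOR186W are another pair, with means of 0.65 ± 0.33 and 0.27 ± 0.49. YLR297W had 0.23 and 0.42 (1 h), 0.78 and 0.29 (2 h), 0.68 and 0.75 (4 h), and 1.20 and 0.90 (6 h), all above 0, while YOR186W had 0.50 and -0.28 (1 h), 0.40 and -0.69 (2 h), 0.35 and 0.74 (4 h), and 0.56 and 0.62 (6 h) and was below 0 on both early channel-2 slides. YOR389W and YPL277C are also paralogs, with means of 0.40 ± 0.33 and 0.37 ± 0.25 and slide values of -0.17 to 0.88 with a median of 0.39 and of 0.14 to 0.83 with a median of 0.27. Whether the spots tell the copies of a pair apart was not tested. All 6 genes had higher means over the 4 h and 6 h slides than over the 1 h and 2 h slides, by 0.25 to 0.58. None of these differences passed the limma test described below. A higher late mean was found in 66.7% of the 60, 70.5% of the 166 other systematic-name genes and 46.5% of all genes.

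Some genes above 0 belong to families of transporters or other membrane proteins, or are related to a proteinase inhibitor or a lipid transfer protein. YDL199C, of the sugar transporter family, had a mean of 0.30 ± 0.21, and YGL114W, of the oligopeptide transporter family, 0.30 ± 0.33. YNL194C, a membrane protein related to the eisosome protein Sur7, stood at 0.34 ± 0.32, and YBR287W, which resembles auxin efflux carriers, at 0.31 ± 0.62. YHR138C, related to the proteinase B inhibitor Pbi2, stood at 0.25 ± 0.33. YKL091C, a homolog of the phosphatidylinositol transfer protein Sec14, had the smallest SD of the 60 (0.23 ± 0.18).

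Members of other enzyme families had low means. YJL218W, which resembles bacterial acetyltransferases, stood above 0 on 8 of 8 slides, from 0.16 to 0.94 with a median of 0.44. YFR018C, which resembles glutaminyl cyclases, ran from -0.55 to 1.05 with a median of 0.62. YHR210C, of the aldose epimerase family, had a mean of 0.28 ± 0.26, and YIL165C, of the nitrilase family, 0.27 ± 0.22. YNR014W and YLR125W, to which no role is given here, were above 0 on 8 of 8 slides, from 0.03 to 0.74 with a median of 0.35 and from 0.04 to 0.52 with a median of 0.39. YOR338W, a paralog of FUN19, had a mean of 0.39 ± 0.35, and YML083C, YDL057W and YGL081W had 0.36 ± 0.27, 0.27 ± 0.28 and 0.26 ± 0.36.

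Among the 60 were also sequences that are not ordinary single genes. YJR028W codes for the Gag protein of a Ty1 retrotransposon, which is present in many near-identical copies, so its spot cannot be assigned to 1 locus. Its slides were -1.60 and 1.60 (1 h), 0.12 and 2.43 (2 h), -0.23 and 0.11 (4 h), and 0.85 and 0.11 (6 h), and its mean of 0.42 ± 1.22 was 0.71 without the 1 h channel-1 slide and 0.14 without the 2 h channel-2 slide. YHR213W, a fragment related to the flocculin gene FLO1, had a mean of 0.26 ± 0.46. YOR302W is the short upstream reading frame in the leader of the CPA1 messenger, which codes for the arginine attenuator peptide, and had 0.25 ± 0.29; whether its spot also binds the rest of that messenger was not tested.

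The 16 genes below 0 had a median absolute mean of 0.40, and the 44 above 0 one of 0.35. YPL216W, a paralog of the chromatin remodelling subunit gene ITC1, had -0.67 and -0.10 (1 h), -0.54 and -1.05 (2 h), -0.22 and -1.17 (4 h), and -0.75 and -1.42 (6 h) (mean -0.74 ± 0.46), below 0 on 8 of 8 slides. YNR021W had -0.48 and -0.55 (1 h), -0.36 and 0.04 (2 h), -0.90 and -0.83 (4 h), and -0.72 and -1.45 (6 h) (mean -0.66 ± 0.44), with all 4 late slides below all 4 early ones. YBL028C, a nucleolar protein, had -0.43 and -0.81 (1 h), -0.33 and -0.17 (2 h), -0.79 and -0.66 (4 h), and -0.83 and -0.98 (6 h) (mean -0.62 ± 0.28), below 0 on 8 of 8 slides.

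YNL058C, a paralog of the cell wall stress gene PRM5, had -0.95 and -0.71 (1 h), -0.37 and -0.55 (2 h), -0.53 and -0.82 (4 h), and 0.07 and -0.33 (6 h) (mean -0.52 ± 0.32). It was below 0 on 7 of 8 slides, and its 6 h slides were its highest.

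A further 4 genes were below 0 on 8 of 8 slides at smaller means. YGR272C had -0.90 and -0.15 (1 h), -0.38 and -0.36 (2 h), -0.49 and -0.14 (4 h), and -0.62 and -0.31 (6 h) (mean -0.42 ± 0.25). YCR087C-A had -0.61 and -0.70 (1 h), -0.20 and -0.43 (2 h), -0.17 and -0.34 (4 h), and -0.23 and -0.65 (6 h) (mean -0.41 ± 0.21). In YGR272C the channel-1 slide was the lower one at every time, and in YCR087C-A the channel-2 slide. YCR090C had -0.42 and -0.05 (1 h), -0.40 and -0.72 (2 h), -0.23 and -0.15 (4 h), and -0.16 and -0.70 (6 h) (mean -0.35 ± 0.25). YOR342C, a paralog of YAL037W, had -0.46 and -0.61 (1 h), -0.18 and -0.53 (2 h), -0.45 and -0.13 (4 h), and -0.01 and -0.39 (6 h) (mean -0.34 ± 0.21), and 1 of its 6 h slides was barely below 0.

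The 3 others of the 12 lowest had 1 slide above 0, in each case the 1 h channel-2 slide. YJR124C had -0.95 and 0.13 (1 h), -1.18 and -0.11 (2 h), -0.42 and -0.20 (4 h), and -0.28 and -0.40 (6 h) (mean -0.42 ± 0.44). YLR287C had -0.67 and 0.44 (1 h), -0.64 and -0.58 (2 h), -0.20 and -0.60 (4 h), and -0.12 and -0.72 (6 h) (mean -0.38 ± 0.40). YKL063C had -0.51 and 0.63 (1 h), -0.35 and -0.39 (2 h), -0.44 and -0.62 (4 h), and -0.33 and -0.65 (6 h) (mean -0.33 ± 0.41), and its other 7 slides lay within a narrow range.

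The 4 other genes below 0 did not keep one sign. YBL036C, of the family of pyridoxal phosphate homeostasis proteins, had 0.15 and -0.22 (1 h), -0.08 and 0 (2 h), -0.35 and -0.64 (4 h), and -0.59 and -0.64 (6 h). It averaged -0.55 over the 4 late slides, against -0.04 over the 4 early ones (limma adjusted p = 0.186 for the difference). YNL190W, a cell wall hydrophilin that protects against drying, had -0.23 and -0.65 (1 h), 0.31 and -0.54 (2 h), 0.37 and -1.07 (4 h), and 0.33 and -0.60 (6 h), above 0 on 3 of the 4 channel-1 slides and below 0 on all 4 channel-2 slides. YHR127W had a mean of -0.24 ± 0.25. YJL028W had -3.14 and -0.30 (1 h), 0.30 and -0.69 (2 h), -0.01 and 0.08 (4 h), and 0.79 and 0.38 (6 h), and its mean of -0.32 became 0.08 without the 1 h slide at -3.14.

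In the 32 genes above 0 outside the 12 highest, means lay between 0.23 and 0.49, and 6 of them were above 0 on 8 of 8 slides. For 9 of the 60 genes, leaving out 1 slide moved the mean by over 1.5 times. These were YKL069W, YJL028W and YJR028W, as given above, and 6 more. Without the 2 h channel-2 slide, YOR186W stood at 0.41, YHR213W at 0.16 and YGR237C at 0.15. Without the other 2 h slide YPL247C, a WD40 repeat protein, stood at 0.16. YMR181C stood at 0.15 without the 6 h channel-1 slide, and YNL190W at -0.15 without the 4 h channel-2 slide.

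The differences between times leave the mean over the slides out in this balanced design, so they could be tested. A slide far from the others can still enter both the choice of a gene and its difference. For YJL028W the 1 h slide at -3.14 did so, as its mean without that slide was 0.08. The question was whether the ratio of a gene changed over the course of the treatment. A limma model with a coefficient for each time and 1 for the channel orientation was fitted to all 3127 genes, with Benjamini-Hochberg adjustment over all of them. For the mean of 4 h and 6 h minus that of 1 h and 2 h, 0 of the 60 genes passed, against 0.0% of all genes, at an adjusted threshold of 0.05. At an unadjusted p under 0.05 there were 8 of the 60 (13.3%), against 17.6% of all genes. Of these 8, 4 were higher late, YJL028W among them, against 4.8% of all genes, and 4 were lower late, against 12.8%. With the slides of each time averaged before the limma fit 0 of the 60 passed again and 8 were under an unadjusted 0.05.

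YOR289W averaged 0.34 late, against 1.01 early, a difference of -0.67 ± 0.18 (SE, limma adjusted p = 0.141), with no overlap between late and early slides. YBR137W had 0.52 and 1.32 (1 h), 0.34 and 1.18 (2 h), 0.24 and -0.03 (4 h), and -0.02 and 0.34 (6 h). It averaged 0.13 late, against 0.84 early, also without overlap, though the highest late and the lowest early slide nearly met (difference -0.71 ± 0.22, limma adjusted p = 0.184). Further down, YNR021W stood at -0.97 late, against -0.34 early (limma adjusted p = 0.207). Late values were the higher ones for YOR385W, with 1.15 late, against 0.48 early (difference 0.67 ± 0.20, limma adjusted p = 0.174), and for YKR075C, with 0.81 late, against 0.23 early (difference 0.58 ± 0.16, limma adjusted p = 0.154). None of these differences passed. As deposited, without centring, the slide medians stay in the difference, which was then 1.06 for YOR385W and 0.97 for YKR075C. Both did pass there (limma adjusted p = 0.0156 and 0.0334), in a fit in which limma gave every gene the same variance. After quantile normalization YOR385W did (limma adjusted p = 0.0392).

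The 4 late slides did not overlap the 4 early slides for 4 of the 60 genes, YOR289W, YBR137W, YNR021W and YBL036C, a share of 6.67%, against 6.72% of all genes. The difference was above 0 for 40 of the 60 (66.7%), against 70.5% of the 166 other systematic-name genes and 46.5% of all genes. Its median was 0.12 in the 60, against 0.21 in the other systematic-name genes and -0.03 in all genes. Its standard error had a median of 0.19 among the 60 and 0.18 among all genes.

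**Figure D3:**
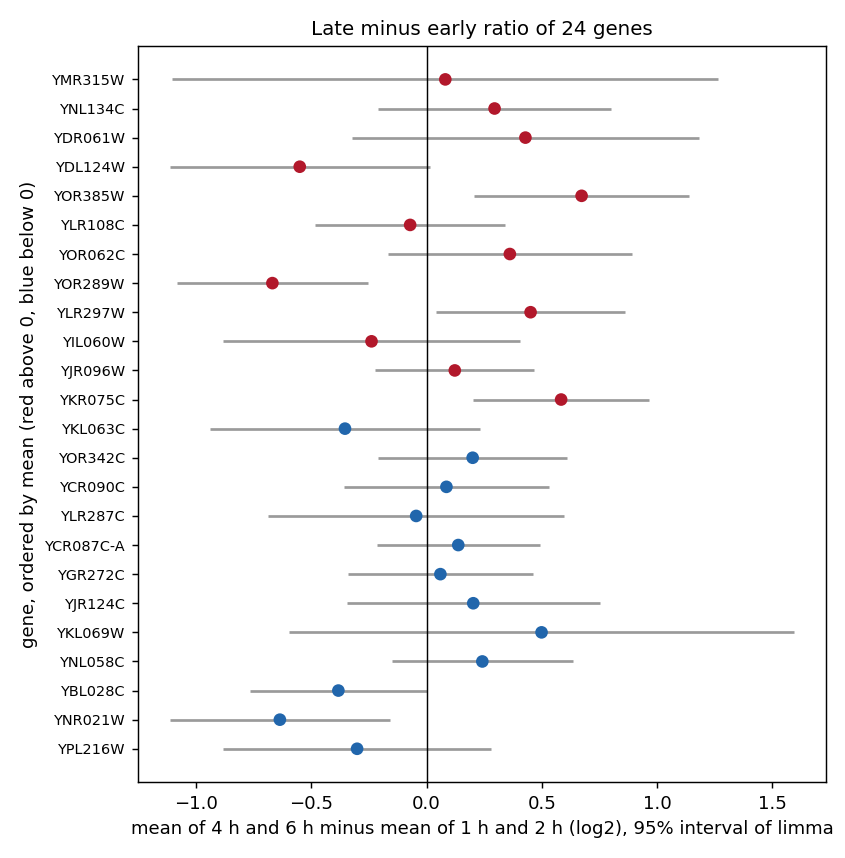
Mean of the 4 h and 6 h slides minus mean of the 1 h and 2 h slides (log2, points, red for genes with a mean above 0 and blue below 0) with the unadjusted 95% interval of the limma model (lines) for the 12 genes with the highest and the 12 with the lowest mean. The intervals of YOR385W, YOR289W, YLR297W, YKR075C and YNR021W leave 0 out, but none of the 24 passed after adjustment over 3127 genes.

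For 6 h minus 1 h, 0 of the 60 genes passed by limma, against 0.0% of all genes. At an unadjusted p under 0.05 there were 12 of the 60 (20%), against 7.58% of all genes. Of these 12, 9 were higher at 6 h (15% of the 60), against 2.69% of all genes, and 3 were lower (5.0%), against 4.89%. YJL028W, one of the 9, had the largest of these differences, 2.30, and it rests on the 1 h slide at -3.14. That slide also brought the gene into the 60, so the choice by mean bears on these unadjusted counts. On the other 1 h slide YJL028W was at -0.30, against 0.79 and 0.38 at 6 h. YOR385W followed, with 1.43 and 1.27 at 6 h, against -0.47 and 0.40 at 1 h (limma adjusted p = 0.344). Both 6 h slides lay above both 1 h slides. YOR389W, YPL277C, YKR075C and YLR297W, all members of the duplicated pairs above, were among the 9. In the limma F-test across the 4 times, 0 of the 60 passed, against 0.0% of all genes, and 3 were under an unadjusted 0.05 (5.0%, against 12.1% of all genes).

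The channel that held the treated RNA is the other factor that the mean leaves out. In the limma test of it, 8 of the 60 genes passed (13.3%), against 17.3% of all genes. They were 4 that stood higher on the channel-1 slides, against 7.23% of all genes, and 4 that stood higher on the channel-2 slides, against 10.0%. The 4 slides of one orientation did not overlap the 4 of the other for 7 of the 60 (11.7%), against 23.9% of all genes. YJR096W averaged 1.15 with treated RNA in channel 1 and 0.10 with it in channel 2 (limma adjusted p = 0.0214). YJL068C, YMR181C and YNL190W were likewise higher in channel 1, with 0.72, 0.60 and 0.19 there and 0.09, -0.10 and -0.71 in channel 2 (limma adjusted p = 0.0419, 0.0345 and 0.0268).

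YBR287W ran the other way, with -0.64 and 0.43 (1 h), -0.25 and 0.99 (2 h), 0.15 and 0.90 (4 h), and -0.11 and 1.00 (6 h). It averaged -0.21 in channel 1 and 0.83 in channel 2 (limma adjusted p = 0.0214), and its channel-2 slide was the higher one at every time. YFR018C, YHR213W and YDL129W were also higher in channel 2, with -0.01, -0.07 and -0.04 in channel 1 and 0.90, 0.59 and 0.51 in channel 2 (limma adjusted p = 0.0268, 0.0407 and 0.0432). Leaving out either slide of a time gives the same orientation fit, since the slide left is taken up by its time's coefficient. Without the 1 h pair no gene on the slides passed, and all 8 calls were lost. The orientation coefficients of YJR096W and YBR287W, the distance of the channel-1 slides from the mean of both orientations, were then 0.55 and -0.51 (limma adjusted p = 0.0802 for both), against 0.53 and -0.52 with all slides. These calls were lost in 1 of 10 distinct alternatives, and those of the other 6 genes in 3 to 6 of the 10. YMR315W, at 1.72 in channel 1 and 2.99 in channel 2, did not pass (limma adjusted p = 0.114), but it did without either 4 h slide (limma adjusted p = 0.0239). It also did with the values as deposited (limma adjusted p = 1.03e-05), where limma gave every gene the same variance. Its coefficient was -0.71 there, against -0.63 in the main fit.

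**Figure D4:**
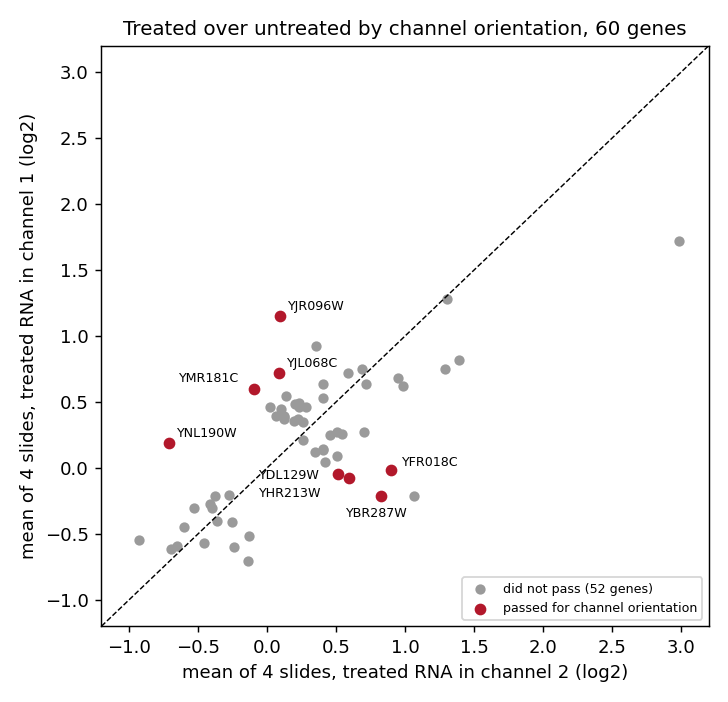
Mean log2 ratio of the 4 channel-1 slides (vertical axis) against that of the 4 channel-2 slides (horizontal axis) for the 60 genes. The 8 red points passed the limma test of channel orientation, 4 on each side of the dashed line of equal values, while the point at the far right is YMR315W at 2.99 and 1.72.

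The 2 readings of a slide differed by a median of 0.20 in the 60 genes, 0.16 in all genes. The SD over the 8 slides had a median of 0.33 in the 60 and 0.35 in all genes.

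The systematic names place the 60 genes on 14 of the 16 chromosomes, with 31 on the W and 29 on the C strand. Chromosome letter O held 9 of them, of 28 measured systematic-name genes there, while the 60 are 26.5% of all 226. Of the 60, 52 had a measured neighbour in the R64 gene order, which gave 76 neighbouring pairs, none of them between members. An absolute mean at or past the limit of 0.23 was reached by 25 of the 76 neighbours (32.9%), against 32.7% of all genes. Divergent pairs, which are transcribed away from a shared stretch, had the same sign of the mean in 13 of 18 cases (72.2%), against 58.8% of all measured divergent pairs. Convergent pairs did in 7 of 15 cases (46.7%), against 48.8%, and pairs on the same strand in 24 of 43 (55.8%), against 50.9%. These shares were not tested.

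Several neighbours are well known genes. YLR108C is divergent from AHP1, a peroxiredoxin gene, which averaged 1.85 and lay between 0.79 and 2.80 on the 8 slides. YKR075C is divergent from ECM4, a glutathione transferase gene of the omega class, which averaged 1.06 late, against 0.26 early, where YKR075C had 0.81 late, against 0.23 early. YOR289W is divergent from MPD1, a protein disulfide isomerase gene, which averaged 0.08 late, against 0.60 early, where YOR289W had 0.34 late, against 1.01 early. Neither ECM4 (limma adjusted p = 0.129) nor MPD1 (limma adjusted p = 0.154) passed for that difference.

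Other neighbours had the opposite sign of the gene beside them. YOR062C at 0.72 is divergent from the ribosomal protein gene RPL3 at -1.10, and YOR292C at 0.35 from RPS10A at -1.17. YDR061W at 1.10 lies beside the ribosome assembly gene MAK21 at -0.99 on the same strand. With the same sign, YLR287C at -0.38 lies beside the chitinase gene CTS1 at -1.60, and YMR315W beside the proteasome gene PRE5 at 0.48. Whether any spot also binds RNA of the gene next to it was not tested.

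**Figure D5:**
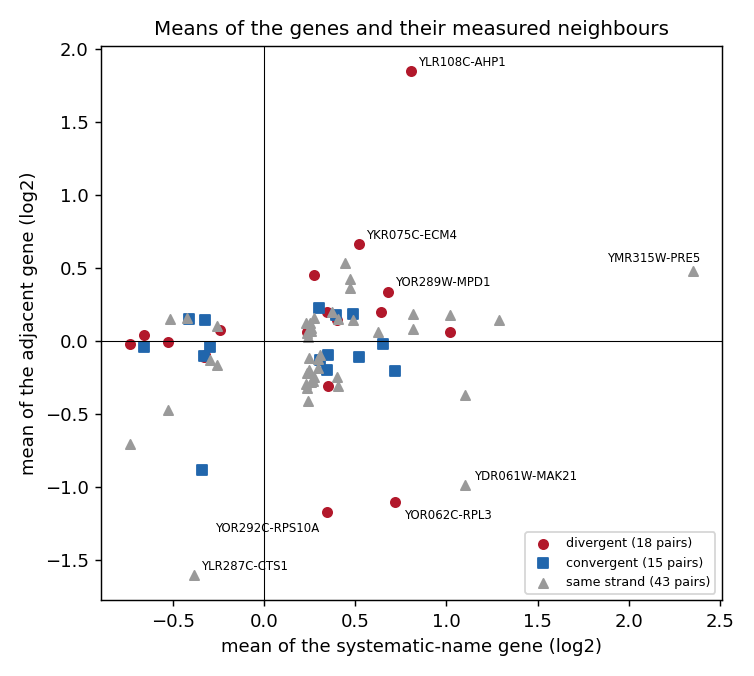
Mean log2 ratio over the 8 slides of the adjacent measured gene (vertical axis) against that of the systematic-name gene (horizontal axis) for the 76 neighbouring pairs, by their arrangement in the R64 annotation. Divergent pairs such as YLR108C with AHP1 and YKR075C with ECM4 lie in the upper right, while YOR062C with RPL3 and YOR292C with RPS10A lie in the lower right.

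A total of 4 gene lists, chosen with earlier results of these data known, were compared with the 60, as counts and medians with no test. Many listed genes carry a standard name on the slides. A systematic name was carried by 7 of the 11 measured oxidoreductase and Yap1-linked genes and 6 of the 22 general stress genes. It was carried by 2 of the 17 ribosome biogenesis genes and 5 of the 19 cell cycle genes. Only genes with such a name could be among the 60, which are 26.5% of all 226. Listed genes with such a name outside the 60 have small means by the same rule, which bears on the medians below. Of 18 listed oxidoreductase and Yap1-linked genes, 11 were measured, of which YMR315W, YNL134C, YDL124W and YJR096W were among the 60. The list does not hold YKL069W (mean -0.51) or YJL068C (mean 0.40), which were described with these enzymes above. The 7 others had 6 means above 0 and a median of 0.19, against 0.01 for all genes. Of 38 listed general stress genes, 22 were measured and 5 were among the 60 (YOR289W, YNL115C, YBR287W, YHR138C and YMR181C). The 17 others had 16 means above 0 and a median of 0.42.

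Of 30 listed ribosome biogenesis genes, 17 were measured, with YBL028C among the 60, and the 16 others had 4 means above 0 and a median of -0.14. Of 31 listed cell cycle genes, 19 were measured, with YNL058C among the 60, and the 18 others had 7 means above 0 and a median of -0.11. None of the listed genes passed for the difference between late and early times by limma, as no gene on the slides did.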

How the data were processed

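Each time of treatment had RNA on 2 slides beside untreated RNA. The deposited values are log ratios between both channels for every reading, given to 2 decimals, and their log2 base was assumed here. Background correction and normalization by the authors are not given in the sources used here. Reading medians ran from -1.03 to 0.45 over 6912 spots, and arrays carry no depth, so the number of slides limits the precision.

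Readings were median-centred over the 3344 spots that name a single gene, turned to treated over untreated, and averaged per slide, then per gene. The 387 spots naming several genes and 3181 naming none were left out.

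Differences between times and the channel orientation were tested with limma 3.58.1 in R 4.3.3 on all 3127 genes (3 residual and 4.89 prior degrees of freedom, two-sided, Benjamini-Hochberg threshold of 0.05), after tests on simulated data. The 60 genes have a systematic name and the largest absolute mean over 8 slides. Named with every slide are the 12 highest and 12 lowest means; others were named for the limit, a known role, a test or a neighbour, after their values were seen. Genes and lists were chosen with earlier results of these data known. Promoter sequences were not analysed here. Alternatives changed the centring, normalization, readings, spot summary, variance, orientation term and slides used.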

Additional observations from a re-analysis of the deposited data

Results flagged for a closer look

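On 5 of the 60 genes, 1 of the 8 slides lay far from the other 7 by Dixon's criterion. Chance flags about 1 in 20 sets of values, the 8 slides span 4 times, and 6.84% of all genes met the criterion. YKL069W stood at -2.44 on the 1 h channel-1 slide, with the other 7 slides between -0.70 and 0.31, and YJL028W at -3.14 on the same slide, with the others between -0.69 and 0.79. YKL063C stood at 0.63 on the other 1 h slide, where the other 7 lay between -0.65 and -0.33, and its mean without it was -0.47. YDL057W stood at 0.88 on the 6 h channel-2 slide, where the others reached 0.32, and YGR237C at 0.84 on the 2 h channel-2 slide, where the others reached 0.26. Without these slides the means of YDL057W and YGR237C were 0.18 and 0.15.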

How the results depend on the processing

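As deposited, without centring, the median gene stood at 0.20. By slide, the median single-gene spot was at 0.305 and 0.11 (1 h), -0.275 and -0.145 (2 h), 0.165 and 0.77 (4 h), and 0.26 and 0.355 (6 h). As deposited, these medians stay in every difference between times, and limma gave every gene the same variance. There 4 of the 60 passed for late minus early (78 of all genes), 2 for 6 h minus 1 h (20 of all genes) and 2 in the F-test (86 of all genes), among them YOR385W and YJL028W in each case. After quantile normalization the late minus early counts were 1, YOR385W (limma adjusted p = 0.0392), of 64 in all, with 2 genes in all for 6 h minus 1 h, 8 in the F-test and 949 for the channel orientation. The fort readings alone gave 1 gene in all for 6 h minus 1 h, and the faible readings 1 in the F-test, 347 for the orientation and 4 of the 60 for the orientation. When each slide was left out in turn, the late minus early count ran from 0 to 137 of all genes and the F-test count from 0 to 58, both highest without the 2 h channel-1 slide, and those of the 60 stayed at 0. For 6 h minus 1 h it ran from 0 to 4 of all genes and 0 to 1 of the 60 (YJL028W, without the 1 h channel-2 slide), and for the orientation from 0 to 280 of all genes and 0 to 4 of the 60. With 1 slide out, 45 to 55 of the 60 genes would still have been chosen, and 41 with the median of the slides. With the 4 h and 6 h slides alone, 35 would have been, and with both 1 h slides left out 51, both chosen after seeing the data. From 44 to 45 of the 60 were above 0 in every alternative run. The causes of these moves were not tested. Of the single-gene values, 796 kept their direction and side of the threshold, 57 lost the call and 3 gained one. A further 24 turned sign, all late minus early differences of 11 genes that passed neither with all slides nor in the alternative. As deposited, YLR108C turned to 0.32, YIL060W to 0.15, YPL216W to 0.089, YBL028C to 0.008, YLR287C to 0.345 and YKL063C to 0.036, and after quantile normalization YLR108C turned to 0.25. With 1 slide out, the difference ran from -0.61 to 0.77 for YMR315W, -0.23 to 0.09 for YLR108C, -0.59 to 0.11 for YIL060W, -0.621 to 0.018 for YPL216W, -0.20 to 1.20 for YKL069W, -0.024 to 0.429 for YJR124C, -0.07 to 0.19 for YGR272C, -0.40 to 0.31 for YLR287C and -0.069 to 0.242 for YCR090C. No paired analysis was possible because the labels number no replicates, and the numbers used here only follow the order of the samples. Slides were matched across times by the treated channel through the orientation coefficient, and without it 0 of the 60 passed in each time test. Promoter motifs were not analysed here.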
